A study of Medicago sativa with 6 samples.

Results

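Leaf was compared with stem in alfalfa (Medicago sativa), a tetraploid forage legume, by RNA sequencing of the genotype RegenSY27x. Leaf and stem are 2 of the 6 tissues sequenced, and the other 4 libraries, flower (flower buds by the sample title), seedpod, nodules and roots, serve here to place the genes that differ. Each tissue is 1 library of RNA pooled after 3 replicates had been harvested, so neither leaf nor stem had replicates and no p-value is given. All plants had the same genotype and growth conditions, with 22 °C by day, 18 °C by night and 16 hours of light, and no treatment is named in the labels. The growth protocol gives the age of the tissues as 8 weeks, whereas the stage label carries another number with an unclear unit. The total counts were 8846524 in leaf and 8829264 in stem, and 8568581 to 9883512 in the other libraries. Levels are counts per 1000000 of each library's total after scaling by the trimmed mean of M-values, written TMM CPM. Genes at 10 TMM CPM or more in leaf or in stem were kept, which took 20459 of the 164633 genes in the table. They carried 94.4% of the leaf counts and 89.6% of the stem counts. The genes nearest to this limit had 10.03 TMM CPM just inside it and 9.98 just outside it.

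The leaf is the main photosynthetic organ, and its RNA is known to be dominated by nuclear genes for the light-harvesting antennae, the photosystems and carbon fixation. The stem carries the vascular tissue, in which xylem and fibre cells lay down thick, lignified secondary walls, and it also holds the dividing and elongating tissue of the shoot. The balance of leaf and stem is a known determinant of the feeding value of alfalfa hay. Apart from 1 identifier that contains the name Pho2, the deposited table pairs its genes with no names, and no identifier matched a list of 63463 genes of another alfalfa assembly (0 matches). Marker lists for photosynthesis, lignin and secondary walls, phloem and epidermis therefore have no values here, the tissue labels could not be checked against markers, and genes are described by position, structure and level. In pooled tissue, fewer cells of a type and less RNA per cell cannot be told apart.

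Leaf and stem differed in a large part of what they expressed. Of the 20459 genes, 9681 (47.3%) were at 10 TMM CPM or more in both tissues, 5072 (24.8%) in leaf only and 5706 (27.9%) in stem only. The log2 ratio of leaf to stem had a median of 0.28, with quartiles of -1.63 and 1.61, and its outer tail was longer on the stem side, with a 5th percentile of -5.20 against a 95th percentile of 4.41. The median itself depended on the scaling. For the same genes it was -0.26 with library totals, a shift of 0.54 on the log2 scale. Directions near equality are therefore relative to the scaling, and the comparisons below use genes that differ by at least 4-fold.

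With a threshold of 4-fold, 3939 genes (19.3%) stood higher in leaf and 4457 (21.8%) were higher in stem. The leaf side held 46.9% of these called genes, but 29.5% with library totals, where 2551 were higher in leaf and 6084 in stem. With DESeq2 size factors the leaf side held 51.8%. No gene changed sides under library totals, DESeq2 size factors or TMM factors from leaf and stem alone (0 in each), but none could. Another scaling moves the log2 ratios of all genes by the same amount, here between -0.54 and 0.14. That is less than the distance between the 2 sides. At 2-fold the counts were 7391 (36.1%) in leaf and 6511 (31.8%) in stem, and 6557 genes (32.05%) lay within 2-fold. At 10-fold there were 1731 genes (8.46%) higher in leaf and 2611 (12.8%) in stem. At 30-fold the counts were 803 (3.92%) in leaf and 1217 (5.95%) in stem. At 100-fold they came together, with 319 (1.56%) in leaf and 308 (1.51%) in stem. With TMM scaling, the leaf side thus had more genes at 2-fold or more. The stem side had more at 4-, 10- and 30-fold or more, and the order at 4-fold depended on the scaling. The genes nearest to the 4-fold limit had ratios of 4.001 just inside and 3.9997 just outside it on the leaf side, and of 4.001 and 3.998 on the stem side. Between 4- and 5-fold lay 774 leaf genes and 559 stem genes, and between 3- and 4-fold lay 1274 leaf genes and 753 stem genes. With the nearer end of the 95% interval of counting error held to 4-fold, 3055 genes (14.9%) were higher in leaf and 3574 (17.5%) in stem.

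**Figure D1:**
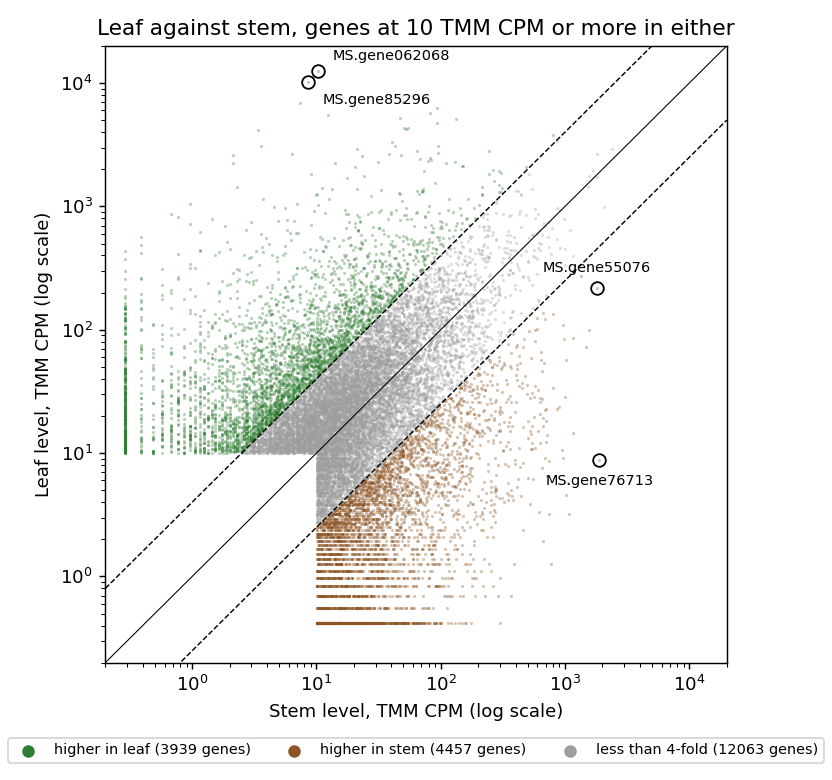
Level of each of the 20459 genes in leaf (vertical, TMM CPM, log scale) against stem (horizontal, TMM CPM, log scale), with 0 counts drawn at the level of 3 counts. Green points are the 3939 genes higher in leaf, brown points the 4457 higher in stem, the solid line is equality, the dashed lines are 4-fold and the circles mark the 4 genes given by identifier.

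The leaf-side genes took a larger share of the leaf library than the stem-side genes took of the stem library. The 3939 genes higher in leaf took 49.2% of all leaf counts and 5.71% of all stem counts. The 4457 genes higher in stem took 1.81% of the leaf counts and 32.3% of the stem counts. Their median levels were 47.6 TMM CPM in leaf and 4.61 in stem for the leaf side, and 2.09 in leaf and 25.9 in stem for the stem side. A typical gene of the stem side was therefore less abundant in its own tissue and was nearer to absence in the other.

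On the leaf side, both genes with the highest levels belong to a group on chromosome 2. MS.gene062068 (chromosome 2.3, the third haplotype copy of chromosome 2, 45194515 to 45196161, 5 exons and a coding length of 558 nucleotides) stood at 12549.2 TMM CPM in leaf and 10.3 in stem. It had 7.25 in flower, 8.80 in seedpod, 449 in nodules and 15.7 in roots. MS.gene85296 (chromosome 2.4, 45328462 to 45329256, 3 exons, 351 nucleotides) reached 10177.1 TMM CPM in leaf and 8.54 in stem. Leaf stood 1222-fold above stem in the first (interval 1011 to 1491) and 1191-fold in the second (968 to 1483). Per kilobase of coding length their order in leaf was the reverse, with 22490 for MS.gene062068 and 28995 for MS.gene85296. Both genes end with exons of 105 and 189 nucleotides. A search for short genes on chromosome 2 with this ending, made after the values were seen and with up to 10 nucleotides of difference allowed in the last exon, gave 4 genes, 1 on each haplotype. The 4 genes differed from one another in their exon lengths. The gene on chromosome 2.1 (45872701 to 45873355, 3 exons) had 4152.2 TMM CPM in leaf and 3.36 in stem. The gene on chromosome 2.2 (42040148 to 42041845, 5 exons) reached 871 in leaf and 0.672 in stem. All 4 genes were far higher in leaf, against a background of 19.3% over all genes. Nothing is read from this count, since the search started from the 2 genes with the highest leaf levels. In each of the 4 genes nodules were the next tissue, at 22.1 to 449 TMM CPM. Summed, the 4 genes reached 27749.2 TMM CPM in leaf (27627.5 to 27871.3) and 22.8 in stem (20.0 to 25.9), a ratio of 1214 (1070 to 1385).

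The ratios within this group were nearly constant. The stem counts of the 4 genes were 0.112% to 0.122% of their leaf counts, although the leaf counts themselves ran from 6252 to 90104. Another gene, on chromosome 1.4 (63480552 to 63485546, 15 exons, 1245 nucleotides), stood at 2593.0 TMM CPM in leaf and 2.11 in stem, and its stem counts were 0.118% of its leaf counts. Among the 142 leaf-side genes with 5000 or more leaf counts the lowest such share was 0.112% and the median was 4.62%, and 11 genes lay under 0.2%. On the stem side, 275 genes had 2000 or more stem counts, with a lowest leaf share of 0.0964%, a median of 3.52% and 4 genes under 0.2%. Whether these few reads come from the RNA of the low tissue or were carried over between libraries was not tested. The folds of genes at the lowest shares therefore describe the reads as counted and may not measure expression in the low tissue, and their intervals cover counting error only.

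On the stem side, the most read gene was short as well. MS.gene76713 (chromosome 4.1, 71166483 to 71167184, 2 exons, 351 nucleotides) stood at 8.77 TMM CPM in leaf (6.74 to 11.2) and 1891.1 in stem (1864.8 to 1917.7). It had 281 in flower, 352 in seedpod, 2.44 in nodules and 2.33 in roots, so that it was found in the other shoot tissues and nearly absent below ground. Stem stood 216-fold above leaf (168 to 281). The next gene differed in kind: MS.gene55076 (chromosome 7.2, 25241906 to 25248705, 11 exons, 2391 nucleotides) stood at 219 TMM CPM in leaf and 1810.8 in stem. It had 925 in flower, 421 in seedpod, 51.8 in nodules and 520 in roots. This gene was expressed in every tissue, and stem stood 8.29-fold above leaf (7.87 to 8.73). Per kilobase of coding length, the stem levels were 5388 for MS.gene76713 and 757 for MS.gene55076.

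MS.gene76713 belongs to a cluster of short genes of like structure on chromosome 4. After the values were seen, chromosome 4 was searched for 2-exon genes whose second exon has 13 nucleotides and whose first exon is within 10 nucleotides of that of MS.gene76713. This gave 17 genes, all between positions 70372182 and 75519937, on all 4 haplotypes. Of these, 10 reached 10 TMM CPM in leaf or stem, 9 of them in stem alone, and all 10 were higher in stem. The background was 21.8% over all genes, but nothing is read from the count, since the search started from the gene with the highest stem level and the genes entered through their stem levels. The other 7 stayed under 10 TMM CPM in both. The 10 genes had from 0 to 16.4 TMM CPM in leaf and from 27.4 to 1891.1 in stem, a spread that the filter on level helps to set. Summed over the 17 genes, the level was 43.5 TMM CPM in leaf (38.8 to 48.6) and 5678.2 in stem (5632.6 to 5724.2), so that stem stood 131-fold above leaf (117 to 147). Seedpod followed stem at 3350.5 and flower had 1257.5, whereas nodules had 13.4 and roots 14.4. Stem was the highest of the 6 tissues in 8 of the 10 genes and seedpod in the other 2. Over all stem-side genes the shares were 36.4% for stem and 23.1% for seedpod. Nothing is read from this count either, since entry through the stem level favours stem. Near-identical copies can exchange reads, so single values within the cluster are less certain than its sum.

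**Figure D2:**
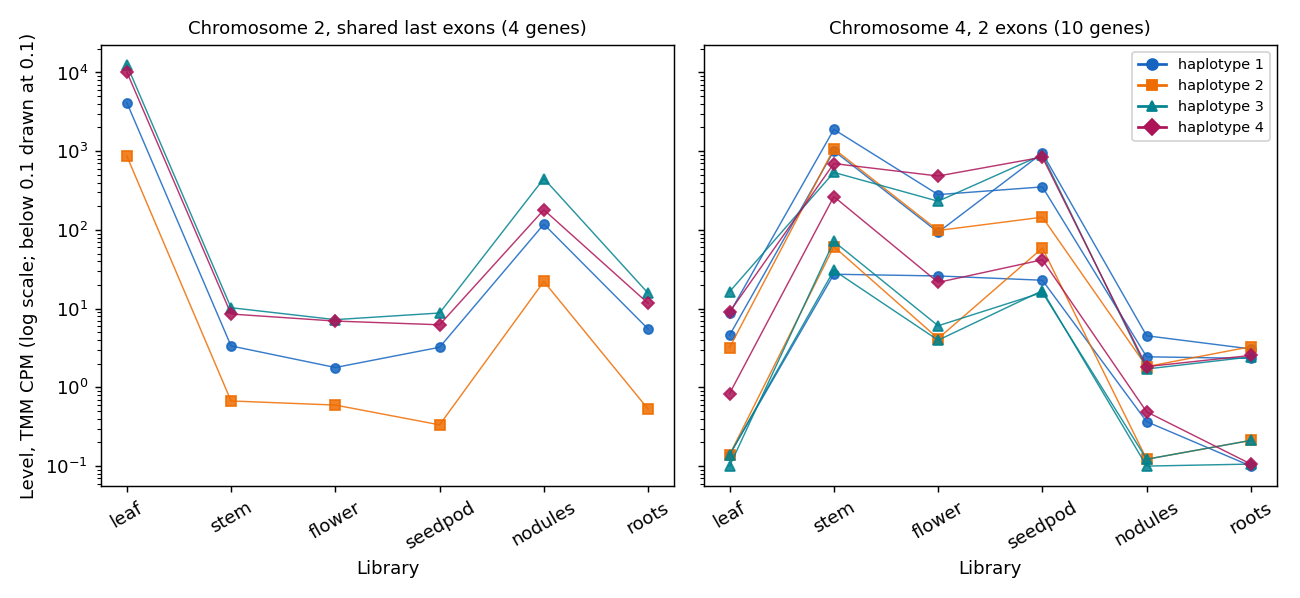
Level in each of the 6 libraries (TMM CPM, log scale, values below 0.1 drawn at 0.1). Left, the 4 chromosome 2 genes with a shared next-to-last exon and a last exon of like length. Right, the 10 short chromosome 4 genes at 10 TMM CPM or more in leaf or stem. Lines join the values of 1 gene, and marker shapes give its haplotype. The chromosome 2 genes are highest in leaf and next in nodules, and the chromosome 4 genes reach their highest level in stem or seedpod, with at most 16.4 TMM CPM in leaf and 4.52 in nodules or roots, while flower varies between genes.

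By ratio, and with at least 10 counts on the low side, 3 leaf genes were foremost. They were the genes on chromosomes 2.1 and 2.3 described above and the 15-exon gene on chromosome 1.4. The last of these had 2.69 TMM CPM or less in flower, seedpod and nodules and 3.71 in roots, so that its reads were nearly all in leaf. On the stem side, the foremost gene lies on chromosome 8.4 (33102475 to 33103707, 2 exons, 363 nucleotides), with 1.95 TMM CPM in leaf and 661 in stem. It had 3.42 to 9.03 in the other 4 tissues, and stem stood 339-fold above leaf (202 to 620). A member of the chromosome 4 cluster on haplotype 2 (75489910 to 75490645) followed, with 3.20 TMM CPM in leaf and 1073.8 in stem (335-fold higher in stem, 223 to 529). The third lies on chromosome 4.1 (51547954 to 51550179, 7 exons, 1440 nucleotides), with 3.20 TMM CPM in leaf, 748 in stem and a still higher 947 in seedpod. No stem count was found for 109 of the leaf-side genes, and no leaf count for 176 of the stem-side genes. These were of low level, with a median of 19.9 TMM CPM in leaf for the 109 genes and of 15.7 in stem for the 176.

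Placed among all 6 tissues, most leaf-side genes were highest in leaf, and most stem-side genes were lowest in leaf. Leaf was the highest of the 6 tissues for 3468 of the 3939 leaf-side genes (88.0%), against 41.7% of all 20459 genes. Stem was the highest for 1623 of the 4457 stem-side genes (36.4%), against 13.4% of all genes. For the rest of the stem side, flower was highest in 1076 genes (24.1%, against 12.5% of all) and seedpod in 1031 (23.1%, against 12.02%). Roots were highest in 370 (8.30%, against 7.89% of all) and nodules in 357 (8.01%, against 12.5%), near or under the shares over all genes. Leaf was the lowest of the 6 for 3115 stem-side genes (69.9%), against 27.2% of all genes. Stem was the lowest for 942 leaf-side genes (23.9%), against 10.4% of all genes, so both shares were above those over all genes, where leaf was also more often lowest than stem. With library totals these shares were 86.2% for leaf highest, 41.7% for stem highest, 71.9% for leaf lowest and 20.7% for stem lowest. The genes were kept for their level in leaf or stem and called on leaf against stem, so only the place of the other 4 tissues is free.

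The other tissues also differed in which side they resembled. For each gene, its level in a tissue was set against the geometric midpoint of its leaf and stem levels, with 0 counts taken as 3. On the leaf side, 2333 genes (59.2%) stayed below the midpoint in all of the other 4 tissues. Nodules were above it for 1265 genes (32.1%), roots for 678 (17.2%), seedpod for 260 (6.60%) and flower for 165 (4.19%). On the stem side, 1582 genes (35.5%) were above the midpoint in all 4 tissues and 134 (3.01%) in none. Seedpod was above it for 3687 genes (82.7%), flower for 3564 (80.0%), roots for 2972 (66.7%) and nodules for 2152 (48.3%). Flower and seedpod were thus the tissues most often on the stem side in both gene sets, and nodules the least often.

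The median levels show the same order. The leaf-side genes had medians of 47.6 TMM CPM in leaf, 4.61 in stem, 4.47 in flower, 5.46 in seedpod, 10.8 in nodules and 7.002 in roots. The stem-side genes had 2.09 in leaf, 25.9 in stem, 19.0 in flower, 20.1 in seedpod, 6.97 in nodules and 11.9 in roots. In genes within 2-fold between leaf and stem, all 6 medians lay between 18.6 and 21.2. Nodules were the highest tissue for 353 leaf-side genes (8.96%), a smaller share than the 12.5% over all genes. These 353 had medians of 30.9 in leaf, 2.88 in stem and 75.9 in nodules, but 14.7 in roots. Of these 353 genes, 30.03% had a single exon, against 17.2% of the leaf side and 13.8% of all 20459. The share was 19.2% for leaf-side genes highest in roots and 19.7% for stem-side genes highest in roots or nodules. The stem-side genes that were highest in stem had medians of 1.81 TMM CPM in leaf and 27.6 in stem, with 3.42 in nodules. Those highest in flower or seedpod (2107 genes) had 2.37 in leaf and 26.3 in stem, with 30.5 in flower and 32.3 in seedpod.

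**Figure D3:**
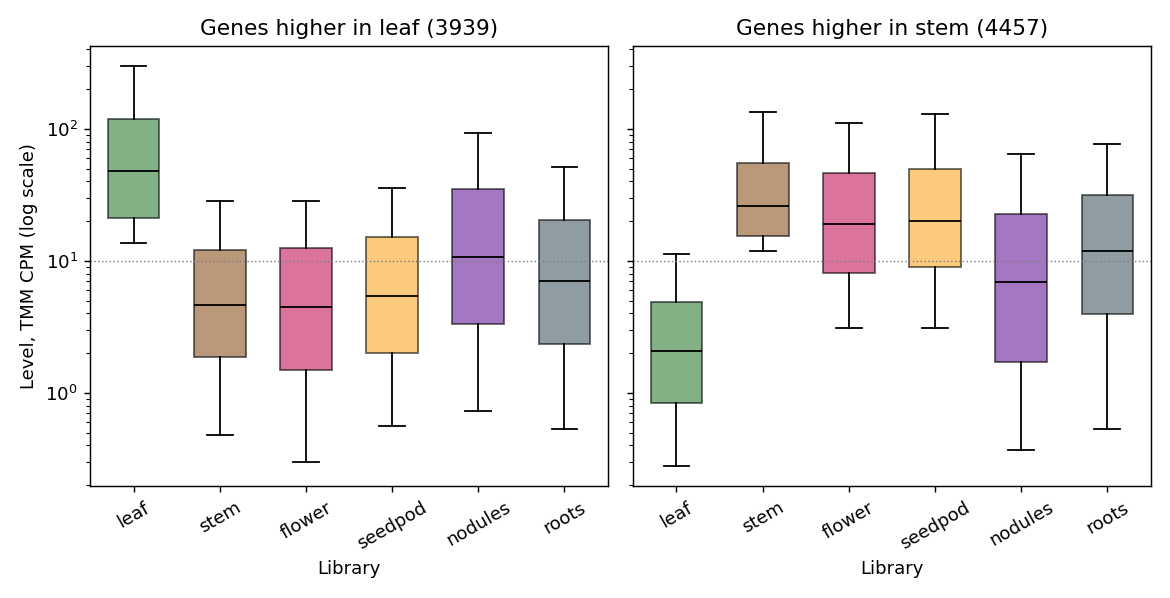
Levels (TMM CPM, log scale) in the 6 libraries of the genes higher in leaf (left) and higher in stem (right), with boxes from the lower to the upper quartile over genes, the median as a line, and whiskers from the 10th to the 90th percentile, and a dotted line at 10 TMM CPM. On the left only leaf stands high, with nodules next, and on the right leaf alone lies lowest, with a median of 2.09.

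Gene structure differed between genes that differed in level and genes that did not. The median coding length was 1164 nucleotides on the leaf side and 1233 on the stem side, against 1260 over all 20459 genes and 1314 within 2-fold. The median number of exons was 4 on the leaf side, 5 on the stem side and 6 within 2-fold. Single-exon genes made up 17.2% of the leaf side and 15.7% of the stem side, against 13.8% of all and 12.1% within 2-fold. Genes of 10 or more exons made up 17.6% of the leaf side and 20.8% of the stem side, against 24.0% of all and 28.9% within 2-fold. Both sides thus had fewer exons than the genes within 2-fold. The order of the sides in coding length depended on the thresholds: at 2-fold the medians were 1248 nucleotides in leaf and 1239 in stem, and with a level minimum of 50 TMM CPM they were 1209 in leaf and 1182 in stem. The mean intron of a gene had a median length of 438 nucleotides on the leaf side, 405 on the stem side and 451 over all genes.

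By class of coding length, the share of genes called was lowest in long genes. Of 1704 genes of 3000 nucleotides or more, 10.5% were higher in leaf and 15.3% in stem. In the 4503 genes of 450 to under 900 nucleotides the shares were 22.2% in leaf and 22.1% in stem. The shortest genes, under 450 nucleotides, did not have the highest shares, with 19.0% in leaf and 20.0% in stem. By exon number the shares were 24.1% in leaf and 24.8% in stem for single-exon genes, and 14.1% in leaf and 18.8% in stem for genes of 10 or more exons. Within 1500 to under 3000 nucleotides, single-exon genes were still called more often on the leaf side (23.004%) than genes of 10 or more exons (13.8%). On the stem side the shares at this length were 19.8% for 1 exon, 24.4% for 2 to 4, 22.4% for 5 to 9 and 20.2% for 10 or more. At 900 to under 1500 nucleotides, single-exon genes had shares of 25.6% in leaf and 25.1% in stem, and genes of 10 or more exons had 19.8% in leaf and 19.6% in stem. At 100-fold or more the genes were shorter still, with medians of 1023 nucleotides in leaf and 994.5 in stem. Calls also varied with the mean level over the 6 tissues. In 4745 genes with a mean under 10 TMM CPM, 28.6% were higher in leaf and 24.7% in stem. In 9068 genes with a mean of 10 to under 30 the shares were 14.7% in leaf and 20.4% in stem, and in 316 genes at 300 or more they were 24.7% in leaf and 26.6% in stem. A gene with a low mean entered the comparison only by being high in leaf or stem, so the first of these classes favours genes that differ.

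**Figure D4:**
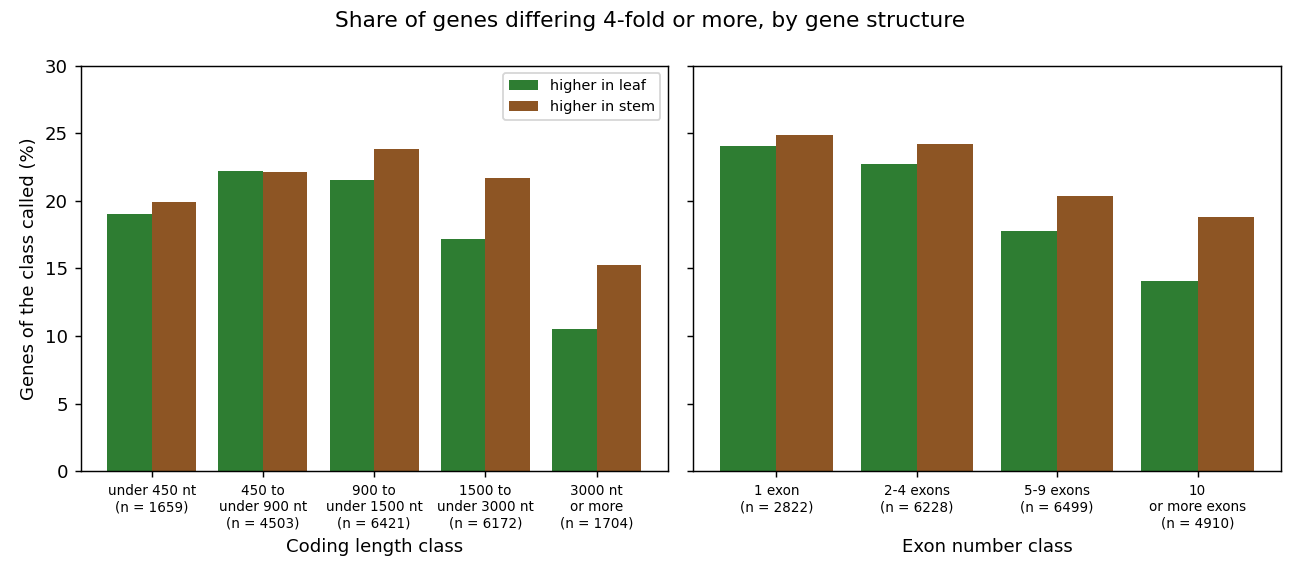
Share of genes called 4-fold or more higher in leaf (green) and in stem (brown), in percent of the genes of each class of coding length (left) and exon number (right), with the number of genes under each class. Both shares are lowest in the longest genes, at 10.5% in leaf and 15.3% in stem, and in genes of 10 or more exons, at 14.1% in leaf and 18.8% in stem.

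Because the annotation lists the 4 haplotypes separately, each difference can be followed over the copies of a gene. Genes on the same chromosome number with the same chain of exon lengths, of at least 3 exons, were taken as copies. There were 2940 sets with exactly 1 copy on each haplotype. A copy at 10 TMM CPM or more in leaf or stem occurred in 1616 of these sets, and 632 had a copy that differed 4-fold or more. Opposite sides are possible only where at least 2 copies were called, as in 313 of the 632 sets, and none of the 313 was split between leaf and stem. Over sets on 2, 3 or 4 haplotypes with at least 2 called copies, 0 of 864 were split. Copies share sequence and can share reads, so they are not replicates.

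In 136 sets all 4 copies were at 10 TMM CPM or more in leaf or stem. All 4 copies were higher in leaf in 23 of them (16.9%) and higher in stem in 26 (19.1%). In 19 sets part of the copies was called, and in 68 none. The log2 ratios of the 4 copies of a set spanned a median of 0.62, with quartiles of 0.35 and 1.01. In 12 of the 136 sets they lay on both sides of 0. The widest set, on chromosome 1, spanned 4.27. Its 6-exon copy on chromosome 1.1 (60238651 to 60240731) had no leaf count and 12.6 TMM CPM in stem, whereas the other 3 copies had 11.003 to 46.1 in leaf and 17.2 to 80.1 in stem. Counts summed over the copies brought 1837 sets to 10 TMM CPM. Of these, 230 (12.5%) were higher in leaf and 407 (22.2%) in stem. The median log2 ratio of these sums was -0.09.

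The leaf-side set with the most reads lies on chromosome 7 (7.1, 3392044 to 3393848, 3 exons, 375 nucleotides). Its 4 copies summed to 7956.8 TMM CPM in leaf and 73.5 in stem, a ratio of 108 (101 to 116), with 738 in nodules. The copies were very unequal, since those on haplotypes 3 and 4 had 2581.2 and 5163.6 in leaf and those on haplotypes 1 and 2 had 111 and 101. A second leaf set, on chromosome 8 (8.1, 51933799 to 51938667, 9 exons, 2904 nucleotides), stood at 1354.6 TMM CPM in leaf and 247 in stem. Its ratio of 5.47 (5.24 to 5.72) was among the lower ones, and nodules had 60.9. The third set (8.1, 20170767 to 20174431, 3 exons, 2112 nucleotides) reached 1304.7 in leaf and 17.6 in stem, and at most 42.7 in the other 4 tissues. This pattern of 1 high tissue returned in the fourth set (8.1, 66953530 to 66957086, 7 exons, 1059 nucleotides), with 1300.5 in leaf and 35.04 in stem. Another set on chromosome 8 (8.1, 73584744 to 73588220, 6 exons, 1656 nucleotides) reached 932 in leaf and 160 in stem, with the other 4 tissues close together at 193 to 225. The sixth (4.1, 87667351 to 87674330, 6 exons, 1578 nucleotides) reached 911 in leaf and 20.1 in stem, with 125 in nodules. The last 2 were nearly confined to the shoot. The set on chromosome 2 (2.1, 10253911 to 10257989, 6 exons, 1272 nucleotides) reached 812 in leaf and 41.6 in stem, but 4.77 in nodules and 2.33 in roots. That on chromosome 7 (7.1, 83665834 to 83672348, 8 exons, 2136 nucleotides) reached 662 in leaf and 108 in stem, but 7.82 in nodules and 5.62 in roots.

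On the stem side, the 8 sets with the most reads were mostly expressed in other tissues too. The first (1.1, 76149528 to 76151977, 4 exons, 1353 nucleotides) reached 195 TMM CPM in leaf and 2332.0 in stem, with 1797.3 in flower, 2190.7 in seedpod and 1181.9 in roots. Leaf stood low here against shoot and root alike, and stem was 11.9-fold above leaf (11.3 to 12.6). The second (5.1, 48870543 to 48872891, 5 exons, 951 nucleotides) reached 155 in leaf and 1588.0 in stem, which was the highest of its 6 tissues. The third (3.1, 65415608 to 65417370, 4 exons, 1416 nucleotides) reached 67.3 in leaf and 1401.3 in stem, below 2113.4 in seedpod. The fourth set (2.1, 55252678 to 55258147, 12 exons, 3135 nucleotides) reached the largest ratio of the 8. It had 39.6 in leaf and 1214.8 in stem, 30.7-fold higher in stem (27.3 to 34.7), and 2526.2 in seedpod but 81.5 in flower. The fifth (3.1, 56334839 to 56337952, 6 exons, 1314 nucleotides) reached 77.4 in leaf, 1159.9 in stem and 3508.8 in seedpod, and 8.38 or less below ground. A shorter set (7.1, 84913853 to 84915059, 4 exons, 330 nucleotides) reached 125 in leaf and 868 in stem, close to 814 in flower. The seventh (4.1, 42857835 to 42863265, 9 exons, 1629 nucleotides) reached 54.3 in leaf and 834 in stem. The eighth (1.1, 24172755 to 24177532, 11 exons, 1788 nucleotides) reached 142 in leaf and 802 in stem, a ratio of 5.65 (5.29 to 6.04) in favour of stem, with copies that agreed most closely, from -2.60 to -2.44 on the log2 scale.

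**Figure D5:**
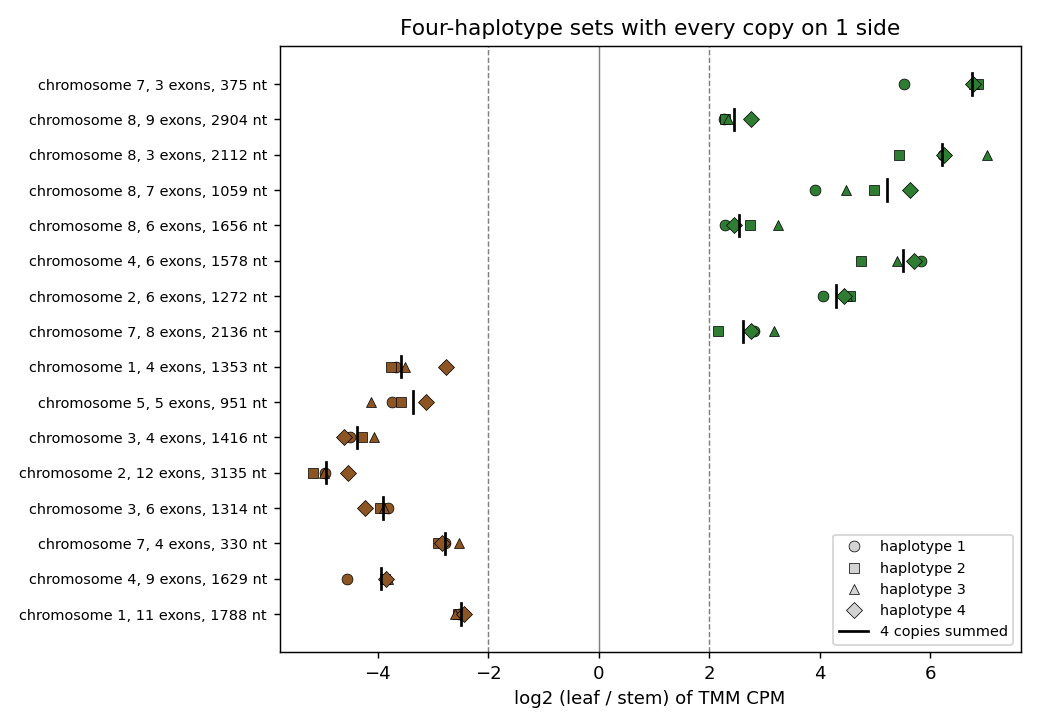
Log2 ratio of leaf to stem for the 4 copies of each of the 16 sets given in the text, the 8 leaf sets above the 8 stem sets, with marker shapes for haplotypes, a black bar for the counts of the 4 copies summed, and dashed lines at 4-fold. The sets were chosen for having all 4 copies beyond 1 of the 4-fold lines, and the copies of the last stem set lie closest together, from -2.60 to -2.44.

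Genes of both sides were spread over all 8 chromosomes. The share higher in leaf ran from 18.0% of the genes of chromosome 8 to 22.0% of those of chromosome 2. The share higher in stem ran from 19.8% on chromosome 6 to 23.01% on chromosome 8. The 4 haplotypes lay within 18.5% to 19.5% for leaf and 21.4% to 22.7% for stem. Of 224 genes on scaffolds and other sequences, 22.8% were higher in leaf and 14.3% in stem.

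Neighbouring genes were more often on the same side than on opposite sides. Of 926 pairs of adjacent genes with both called, 301 were both higher in leaf, 335 both higher in stem and 290 on opposite sides. The same side thus held 68.7% of these pairs. Of all called genes, 46.9% were on the leaf side. Pairs drawn without regard to position would therefore fall on the same side about as often as on opposite sides. Adjacent copies can exchange reads, and their part in this share was not tested. Runs of at least 3 adjacent genes on 1 side numbered 19 for leaf, with 58 genes, and 31 for stem, with 107 genes. Only 1 leaf run had 4 or more genes, against 8 stem runs. That leaf run lies on chromosome 6.3 (8723107 to 8744022) and its 4 genes, all on 1 strand with 1 to 3 exons, had 57.2, 11.7, 36.6 and 98.9 TMM CPM in leaf. In stem none of them had a count. With stem set to 3 counts per gene, leaf was 199-, 40.6-, 127- and 343-fold higher. The lower ends of the intervals, taken from the counts themselves, were 160.9, 32.3, 102.7 and 278.5. Summed, the run had 204 TMM CPM in leaf and 29.5 in seedpod, 12.3 in flower and 1.06 or less below ground. Of the 3-gene leaf runs, the one with the most reads lies on chromosome 6.2 (72807422 to 72844383). Its first gene, of 42 exons and 4134 nucleotides, stood at 2395.9 TMM CPM in leaf and 83.5 in stem, and the other 2 had 64.3 and 44.3 in leaf and 6.24 and 5.09 in stem. The next lies on chromosome 1.2 (1399232 to 1410372), with 1767.4 in leaf and 64.03 in stem for its 3 genes together.

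The longest stem runs had 6 genes each. That on chromosome 2.2 (14416834 to 14447924) summed to 37.6 TMM CPM in leaf and 332 in stem, and that on chromosome 8.1 (85191039 to 85246515) to 14.4 in leaf and 216 in stem. Both mixed genes of 1 exon with genes of 16 and 19 exons on both strands, and their members varied in which other tissue they favoured. A run of 5 genes on chromosome 2.1 (19095995 to 19189030) was more uniform, with all 5 on 1 strand and 3 of them of 822 nucleotides and 3 exons. It summed to 29.5 TMM CPM in leaf and 1154.2 in stem, and was higher still in roots at 2927.1. Adjacent copies can exchange reads, and this was not tested for any run.

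PHO2, the gene whose mutants give the series its title, codes for an enzyme of the ubiquitin pathway, known from Arabidopsis as a brake on phosphate transport to the shoot, and it was on the leaf side. The table's identifier for 1 copy gives the name, and the other 3 were recognised by the shared lengths of exons 2 to 7. The 4 copies comprise 1 on each of chromosomes 2.1, 2.2 and 2.3 and 1 on a sequence of its own. They had 44.1 to 92.9 TMM CPM in leaf and 3.94 to 11.2 in stem, and their ratios ran from 4.86 to 11.2. All 4 were called higher in leaf, against 19.3% of all genes, but copies can share reads. The lowest ratio, on chromosome 2.2, had an interval of 3.91 to 6.09, which reaches below 4-fold. The shift of -0.54 with library totals would take its log2 ratio of 2.28 below the 4-fold limit. Summed, the 4 copies had a ratio of 7.74 (6.91 to 8.69). Roots, with 33.9 to 115 TMM CPM, exceeded leaf in 3 of the 4 copies.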

How the data were processed

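The authors deposited raw counts per gene for 6 libraries, with exon positions and strand, per the file headers; the summed exon length, a quantity other than a count, is also the authors' value. Trimmomatic, FastQC, featureCounts and edgeR are named per the submitters' processing notes; aligner, genome build, strand setting and treatment of reads with several matches were not given in the sources used here. Coordinates are those of the file. No gene span overlapped another (0 genes). Since 95.6% of the summed exon lengths can be divided by 3, they are called "coding length".

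TMM factors came from edgeR 4.0.16 over all genes and 6 libraries (R 4.3.3), and DESeq2 1.42.0 size factors served as an alternative. Levels, ratios and figures were made with scipy 1.17.1, numpy 2.4.6, matplotlib 3.10.9 and pandas 2.3.3 under Python 3.11.15. A gene was called at 10 TMM CPM or more (about 71.8 leaf or 104 stem counts) and 4-fold or more, with 0 counts set to 3. Intervals are 95% exact conditional binomial (Clopper-Pearson) for ratios and exact Poisson for levels. Both express counting error alone and hold no variation between plants or libraries, because each tissue is 1 pooled library. They also make no allowance for PCR copies of a molecule, which were not marked. The calls were run on simulated counts with counting error alone, in which 200 genes were given changes well beyond 4-fold. This does not cover changed genes near the 4-fold or level limits, or variation between libraries.

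Genes given by identifier were the 2 per side with the highest level on their side; by position, the 8 sets per side with 4 called copies and the highest summed level, the 3 largest ratios per side with 10 counts on the low side, and the 3 longest runs per side, ties broken by level. The rule also asked for sets with opposed copies, and there were none. The genes, lists and rules were chosen with earlier results of these data known.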

Additional observations from a re-analysis of the deposited data

How the results depend on the processing

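No paired analysis was possible because each tissue has 1 library, and for the same reason no library could be left out. With library totals in place of TMM, 2551 genes were higher in leaf, the median log2 ratio was -0.56 over the genes then at 10 CPM, the median coding length of the leaf side was 1128 nucleotides, and 14 sets had all 4 copies higher in leaf. The cause of the difference between the scalings was not tested. The median log2 ratio was 0.49 with DESeq2 size factors and 0.34 with TMM factors from leaf and stem alone. At a level minimum of 1 TMM CPM, 6872 genes were higher in leaf and 11339 in stem, the median log2 ratio was -0.23 and the leaf-side coding length 1131. At 50 TMM CPM these were 1910, 1211, 0.94 and 1209, with a stem-side coding length of 1182. At 2-fold, 7391 genes were higher in leaf, with 49 sets and a coding length of 1248, against 1239 on the stem side. At 10-fold, 1731 were higher in leaf and 2611 in stem, with a leaf-side coding length of 1083 and 11 leaf sets. Another floor (1 count, or 0.5 counts added), thinning to the smaller total, leaving out overlapping genes (there were none) and copies of at least 5 exons kept every count within 1.5 times. The ratios of the 4 genes given by identifier and the 16 sets were recomputed under the other 3 scalings, which gave 60 values. The shifts ran from -0.54 to 0.14 on the log2 scale. Of the 60 values 0 changed sign, and none could, since each ratio was beyond 4-fold as reported. The tallies by tissue under other scalings, and the sums over copies, were added after the data had been seen. Depth limits the low side: 3 counts are 0.418 TMM CPM in leaf and 0.288 in stem.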

Other observations

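Long genes without introns were seldom on the stem side. Of 48 single-exon genes of 3000 nucleotides or more, 10 (20.8%) were higher in leaf, near the 19.3% over all genes, and 1 (2.08%) was higher in stem, against 21.8% over all genes, and their median log2 ratio was 1.20, where all genes had 0.28. Of the 1131 genes of that length with 10 or more exons, 8.40% were higher in leaf and 14.7% in stem. This class was picked after its values were seen and was not tested.

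A run of 4 adjacent single-exon genes on chromosome 3.3 (13591902 to 13611681, 327 to 564 nucleotides, all on 1 strand) summed to 24.7 TMM CPM in leaf and 416 in stem, but to 5902.0 in flower. Flower was thus the highest tissue of this run, which was also chosen after its values were seen.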
